A study of Mus musculus with 12 samples.

Results

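Contractile genes of heart and skeletal muscle were followed in RNA of whole mouse lung. The set held 45 genes for the sarcomere and its calcium handling: 21 known mainly from heart, 20 known mainly from skeletal muscle and 4 common to both. Members were found by the gene name printed with each array probe, which located 44 of the 45; Mybpc1 was matched through its accession. A member counted as measured when a probe was well above background on at least 4 of 12 arrays. This held for 41 of the 45, out of 19829 measured genes in all: 20 cardiac, 17 skeletal and all 4 common members. The 12 arrays were Agilent whole-genome arrays labelled with a single dye, each hybridised with lung RNA from 1 animal. By the labels there were 4 animals per group. One group was wild type (WT) and breathed room air, another was WT and breathed cigarette smoke, and the last carried a Rora mutation and breathed the same smoke. All animals are described as male C57Bl/6 aged 12 weeks, and smoke was given on 5 days a week for 4 months. Whether that age is at the start of exposure is not stated, and it is too short to be the age after 4 months of smoke. The product of Rora is a transcription factor of the nuclear receptor family, and its target sites are called ROR elements. The mutant allele is not named in the sources used here, and mutants in room air were not analysed here, so genotype and its interplay with smoke cannot be told apart.

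The sarcomere is the contractile unit of striated muscle: thick filaments of myosin heavy and light chains pull on thin filaments of actin, which the troponins open to myosin when calcium binds. Calcium is released by ryanodine receptors from a store held by calsequestrin and is pumped back by SERCA, which phospholamban and sarcolipin restrain. Heart and skeletal muscle build this machine from separate gene copies, and within the heart atrium and ventricle differ in their light chains. In mice, a sleeve of atrium-like cardiac muscle runs along the pulmonary veins into the lung, whereas skeletal muscle is no part of the lung itself.

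Promoters are shown for the 4 cardiac members whose difference between mutant and WT smoke lungs held in the most settings of the analysis. Each line gives the 250 bases before the start site, 5′ to 3′ on the gene's own strand, from RefSeq on build GRCm38.p6. Capitals mark matches to the MEF2 site, the CArG box of serum response factor, the M-CAT core CATTCC and the TATA sequence TATAAA, each searched on both strands; a TATAAA match can lie within a MEF2 or CArG match, which it does in none of these 4. The windows are chr9:110763428-110763677 on the plus strand for Myl3, chr2:91117894-91118143 on the plus strand for Mybpc3, chr10:53337436-53337685 on the plus strand for Pln and chr19:36119845-36120094 on the minus strand for Ankrd1. Their array probes are placed on another build, mm8, as the array files give it, so their position relative to these windows was not checked. On mm8 the probes span chr9:110613944-110614238, chr2:90937259-90937318, chr10:53033553-53033612 and chr19:36177463-36177522 in the same order.
Myl3: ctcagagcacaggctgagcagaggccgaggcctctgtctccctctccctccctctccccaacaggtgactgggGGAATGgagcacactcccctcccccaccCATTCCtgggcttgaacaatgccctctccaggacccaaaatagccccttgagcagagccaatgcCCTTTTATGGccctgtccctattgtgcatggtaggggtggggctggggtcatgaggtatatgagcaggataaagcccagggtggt
Mybpc3: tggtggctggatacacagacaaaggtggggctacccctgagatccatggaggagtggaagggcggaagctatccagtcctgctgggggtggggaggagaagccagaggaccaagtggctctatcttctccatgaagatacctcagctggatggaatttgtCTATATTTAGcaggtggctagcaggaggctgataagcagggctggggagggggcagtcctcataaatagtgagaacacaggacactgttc
Pln: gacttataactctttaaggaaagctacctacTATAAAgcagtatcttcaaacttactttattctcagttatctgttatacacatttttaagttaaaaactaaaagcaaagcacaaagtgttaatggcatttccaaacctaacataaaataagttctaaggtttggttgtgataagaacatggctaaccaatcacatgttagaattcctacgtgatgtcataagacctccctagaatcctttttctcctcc
Ankrd1: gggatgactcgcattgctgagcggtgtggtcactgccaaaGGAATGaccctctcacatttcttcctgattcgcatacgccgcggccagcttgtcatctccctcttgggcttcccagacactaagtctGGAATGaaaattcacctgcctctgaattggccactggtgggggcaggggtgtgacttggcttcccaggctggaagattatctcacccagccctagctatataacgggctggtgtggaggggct
The Myl3 window held 1 CArG box, 85 to 76 bases before the start, and 2 CATTCC cores. In Mybpc3 there was 1 MEF2 match, 90 to 81 bases before the start. Pln had a single TATAAA at 219 to 214 bases before the start, and Ankrd1 had 2 CATTCC cores. Over the 38 members with a promoter in the table, CATTCC was found in 8 of 19 cardiac, 5 of 16 skeletal and 0 of 3 common members, against 12.6% of all 32851 promoters. Here and below a member counted when any of its promoters matched, and the 38 members had 45 promoters. The share of all is per promoter, so the 2 are not of the same unit. MEF2 matches were in 2 cardiac (Mybpc3 and Casq2), 3 skeletal (Myh1, Myh4 and Pvalb) and 1 common member (Ttn), against 2.92% of all. CArG boxes were in 3 cardiac (Actc1, Myl3 and Myl7), 2 skeletal (Acta1 and Myh4) and 1 common member (Ldb3), against 1.47%. The ROR element was found in no member's window and in 0.332% of all promoters. Its core AGGTCA was found in 2 cardiac, 1 skeletal and 1 common member, namely Myl2, Ryr2, Atp2a1 and Actn2, against 14.0% of all. These matches describe letters in 1 window and say nothing of binding.

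Rora itself had a log2 level of 1.10 ± 0.04 (SD, n = 4) in WT air, 1.18 ± 0.04 in WT smoke and -1.01 ± 0.10 in the mutants, a difference of -2.20 between the smoke groups (adjusted p = 1.17e-09). Levels here are log2 of the processed signal minus the array's 75th percentile, so 1 unit is a doubling and a level of one probe says nothing against that of another. Between 70.1% and 74.8% of spots were well above background per array. The 4 WT air arrays went against their male label. Their Xist level, from the inactive X chromosome, was 4.04 ± 0.07, while WT smoke arrays measured -5.39 ± 2.09 and mutant arrays -4.61 ± 1.26. All 8 smoke arrays had Uty, Ddx3y and Kdm5d, genes of the Y chromosome, well above background, and 0 of 4 WT air arrays did. In every difference from the group labelled WT room air, smoke and this sex-linked signal therefore cannot be told apart. The comparison of mutant with WT smoke lungs does not use those arrays for its difference, only for the estimate of spread.

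The lung RNA carried cardiac transcripts, those of atrial forms among them. Myl7 and Myl4, the atrial regulatory and essential light chains, Sln, which encodes sarcolipin, and Nppa, which encodes atrial natriuretic peptide, were well above background on all 12 arrays. The ventricular regulatory light chain Myl2 was well above background on only 2 of 12 arrays and was not tested. Every other cardiac member was well above background on all 12, including Myl3 and Myh7, known from ventricle and slow muscle. Of the skeletal members, Tnni1, the slow troponin I, Mybpc1, the slow myosin-binding protein C, and Pvalb, the calcium buffer parvalbumin, were well above background on 0 arrays. Casq1, Myh1 and Myh2 reached that mark on 4, 9 and 9 arrays. For such a gene the filter was passed mainly through the groups in which it was brighter. In RNA of a whole organ, fewer muscle cells and less RNA per muscle cell cannot be told apart.

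Cardiac members were higher in smoke-exposed Rora mutants than in smoke-exposed WT lungs. Of the 20 measured, 6 rose and none fell at an adjusted p under 0.05 (limma with Benjamini-Hochberg adjustment over all genes; 0 were lower even at an unadjusted p under 0.05). These were Myl3, Mybpc3, Pln, Ankrd1, Myh7 and Atp2a2. Over all genes tested, 6.05% passed in this comparison, 2.49% as higher and 3.56% as lower. All 20 cardiac differences were above 0, with a median of 0.38 log2 units and a range of 0.04 to 1.07, beside a median of 0.00 over all genes. For 12 of the 20 cardiac and 6 of the 17 skeletal members the lowest mutant array lay above the highest WT smoke array, which was so for 6.56% of all genes. The reverse order held for 0 cardiac and 1 skeletal member, against 6.85% of all genes. Skeletal members were less uniform: 5 of 17 rose (Myh1, Myh2, Ckm, Acta1 and Mybpc2), none fell, 5 differences were below 0, and the median was 0.29. Myh1 and Myh2 were dim in WT smoke and had passed the filter mainly through the other groups. Of the 14 skeletal members well above background on all 12 arrays, tested among such genes alone, 3 rose (Ckm, Acta1 and Mybpc2) and 1 fell (Tnnt1). Of the skeletal members, 2 were lower at an unadjusted p under 0.05. The 4 common members (Tcap, Ldb3, Actn2 and Ttn) ran from -0.14 to 0.34, and none passed, also not at an unadjusted p under 0.05.

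Among the myosin and thick filament genes of the heart, Myl3 differed the most. Myl3, the essential light chain of ventricle and slow muscle, measured -0.18, -0.22, -0.04 and 0.30 in WT air replicates 1 to 4, -0.78, -0.49, -0.42 and -0.71 in WT smoke, and 0.51, 0.95, 0.63 and -0.22 in the mutants. Every mutant array lay above every WT smoke array, with mutant replicate 4 nearest to them and level with the lowest WT air array. The difference was 1.07 ± 0.21 log2 units (SE; 2.09-fold, adjusted p = 0.0157). Mybpc3, the cardiac myosin-binding protein C that tunes cross-bridge cycling, measured 2.25, 1.98, 1.73 and 2.22 in WT air, 1.64, 0.97, 1.50 and 1.19 in WT smoke, and 2.21, 1.88, 2.49 and 1.99 in the mutants. All 4 WT smoke arrays were below all 8 others, and mutants overlapped WT air. The mutants exceeded WT smoke by 0.82 ± 0.17 (1.76-fold, adjusted p = 0.0209). Myh7, the slow myosin heavy chain of ventricle and slow muscle, measured 2.94, 3.14, 2.77 and 3.10 in WT air, 2.98, 3.02, 3.00 and 3.04 in WT smoke, and 3.53, 3.29, 3.43 and 3.29 in the mutants. The 4 mutant arrays were above all 8 WT arrays, whose groups overlapped. Its difference was 0.38 ± 0.08 (1.30-fold, adjusted p = 0.024). The other measured thick filament genes of the heart, the atrial light chains Myl4 (0.36 ± 0.11, adjusted p = 0.0794) and Myl7 (0.42 ± 0.14, adjusted p = 0.109) and the alpha heavy chain Myh6 (0.39 ± 0.13, adjusted p = 0.103), did not pass. Myh6 and Myh7 are near-identical neighbours, so their probes may share signal.

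Pln and Atp2a2 act on the same step of calcium return. Pln, whose product phospholamban restrains the SERCA pump, measured -1.98, -2.17, -2.37 and -2.08 in WT air, -2.03, -2.47, -2.00 and -2.36 in WT smoke, and -1.40, -1.44, -1.19 and -1.62 in the mutants. All mutant arrays were above all 8 WT arrays. Its difference was 0.80 ± 0.13 (1.74-fold, adjusted p = 0.00593). Atp2a2, the SERCA pump of heart and slow muscle that is also made in non-muscle cells, measured 2.06, 1.89, 1.67 and 1.83 in WT air, 1.84, 1.50, 1.82 and 1.85 in WT smoke, and 2.20, 2.08, 2.15 and 2.04 in the mutants. The mutants did not overlap WT smoke but overlapped WT air through its replicate 1, and WT smoke replicate 2 was the lowest of all. The difference was 0.37 ± 0.10 (1.29-fold, adjusted p = 0.0472). The remaining calcium genes, Ryr2 (release channel), Casq2 (calsequestrin), Hrc (a luminal calcium-binding protein) and Sln, ran from 0.19 to 0.51 and did not pass.

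Of the cardiac genes grouped under titin and the Z-disc, the anchor of the thin filaments, Ankrd1 rose and Csrp3 did not pass. Ankrd1, a stretch-responsive titin-binding protein that also acts in the nucleus, measured 1.17, 1.26, 1.24 and 1.16 in WT air, 1.15, 1.36, 1.36 and 1.53 in WT smoke, and 1.98, 1.81, 1.83 and 1.74 in the mutants. The mutant arrays stood above all WT arrays. The difference was 0.49 ± 0.08 (1.40-fold, adjusted p = 0.00629). Csrp3, the muscle LIM protein, measured 1.47, 1.24, 0.93 and 1.41 in WT air, 1.34, 0.70, 1.14 and 1.22 in WT smoke, and 1.65, 1.59, 1.90 and 1.46 in the mutants. Mutants and WT smoke did not overlap, although the difference of 0.55 ± 0.15 stopped at an adjusted p of 0.0572. Thin filament genes of the heart moved least: Tnnt2, Tnni3, Tnnc1 (troponins T, I and C) and Actc1 (cardiac actin) had differences of 0.04 to 0.35, none of which passed, and 1 of which had an unadjusted p under 0.05.

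The natriuretic peptides varied widely between arrays of 1 group. Nppa measured 3.13, 2.50, 1.61 and 2.71 in WT air, 1.42, 1.06, 1.68 and 1.89 in WT smoke, and 2.57, 1.97, 2.71 and 2.24 in the mutants. WT smoke lay below all mutant arrays, while WT air replicate 3 fell among the WT smoke arrays. The difference of 0.86 ± 0.29 (1.82-fold) between the smoke groups had an adjusted p of 0.114. Nppb, which encodes the B-type peptide, measured -5.08, -5.46, -5.12 and -4.31 in WT air, -5.25, -6.07, -5.31 and -5.13 in WT smoke, and -5.39, -5.62, -4.59 and -5.92 in the mutants. The 3 groups overlapped, and the smoke groups differed by 0.06 ± 0.31 (interval -0.62 to 0.75).

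**Figure D1:**
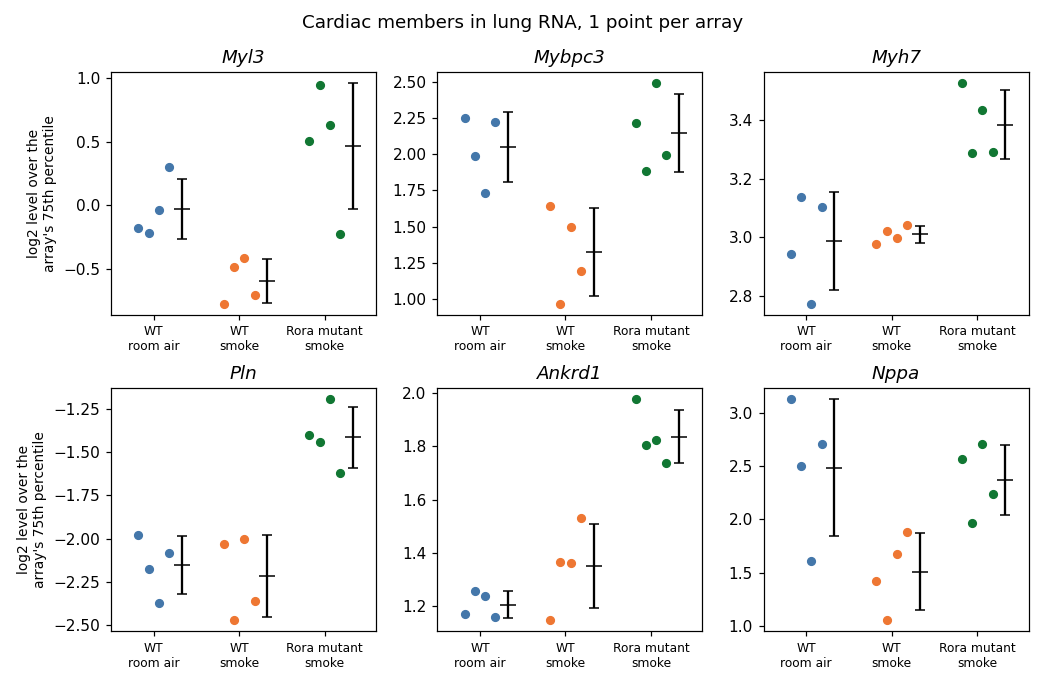
Log2 level over the array's 75th percentile of 6 cardiac members, 1 point per array, for WT room air, WT smoke and Rora mutant smoke lungs; the bar beside each group is its mean with SD (n = 4), and the axes do not start at 0. Pln, Ankrd1 and Myh7 show all 4 mutant arrays above all 8 WT arrays, while in Myl3, Mybpc3 and Nppa the WT smoke arrays are the low group.

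Among the skeletal members, both fast heavy chains that passed were lowest in WT smoke. Myh2, the fast IIa heavy chain, measured -5.71, -5.72, -5.58 and -5.16 in WT air, -6.71, -6.74, -6.76 and -7.30 in WT smoke, and -6.03, -6.38, -5.90 and -6.31 in the mutants. The 3 groups did not overlap, WT air being highest and WT smoke lowest, and only 1 of 4 WT smoke arrays was well above background. Mutants exceeded WT smoke by 0.72 ± 0.17 (1.65-fold, adjusted p = 0.0285). Myh1, the fast IIx heavy chain, measured -6.35, -5.59, -6.12 and -5.99 in WT air, -6.62, -6.57, -6.68 and -7.12 in WT smoke, and -6.25, -5.86, -5.99 and -5.39 in the mutants. WT smoke, with 1 of 4 arrays well above background, was below both other groups, which overlapped. The difference was 0.88 ± 0.20 (1.84-fold, adjusted p = 0.0267). This call rests on 1 dim probe, since the other Myh1 probes were well above background on 2 and 0 of 12 arrays. Myh4, the fast IIb heavy chain, measured 0.74, 0.23, -0.09 and 0.24 in WT air, 0.31, -0.69, 0.19 and 0.08 in WT smoke, and 0.44, 0.14, 0.80 and 0.31 in the mutants. Its groups overlapped, and 0.45 ± 0.23 did not pass (adjusted p = 0.293). Its value rests on 1 probe, since the second Myh4 probe was well above background on 1 of 12 arrays. Myh1, Myh2 and Myh4 are neighbouring, near-identical genes whose probes may share signal.

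Mybpc2, the fast myosin-binding protein C, measured -0.67, -0.71, -1.05 and -0.75 in WT air, -1.54, -1.21, -1.22 and -1.14 in WT smoke, and -0.59, -0.80, -0.82 and -1.05 in the mutants. WT smoke was below all 8 other arrays. The mutant exceeded WT smoke by 0.46 ± 0.12 (1.38-fold, adjusted p = 0.0447). Acta1, the skeletal alpha-actin, measured -2.83, -2.86, -2.83 and -2.88 in WT air, -3.36, -3.46, -3.02 and -3.15 in WT smoke, and -2.85, -2.79, -3.01 and -2.48 in the mutants. The highest WT smoke array was just below the lowest mutant array. This difference was 0.46 ± 0.11 (1.38-fold, adjusted p = 0.0352). Acta1 and the cardiac Actc1 are close copies, so the split between them is uncertain. Ckm, the muscle creatine kinase that buffers ATP, measured -1.84, -2.11, -2.41 and -2.07 in WT air, -2.24, -2.71, -2.41 and -2.38 in WT smoke, and -1.61, -1.71, -2.08 and -2.07 in the mutants. Mutants and WT smoke were separate, and WT air overlapped both. The difference was 0.57 ± 0.15 (1.48-fold, adjusted p = 0.0434). Tnnt3, the fast troponin T, measured -2.09, -1.87, -2.10 and -2.56 in WT air, -2.22, -3.24, -2.41 and -2.51 in WT smoke, and -2.50, -1.82, -2.36 and -2.33 in the mutants. WT smoke replicate 2 was the lowest, all groups overlapped, and 0.34 ± 0.22 did not pass. The only member whose mutant arrays were all below WT smoke was Tnnt1, the slow troponin T (-0.50 ± 0.14, adjusted p = 0.0551).

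**Figure D2:**
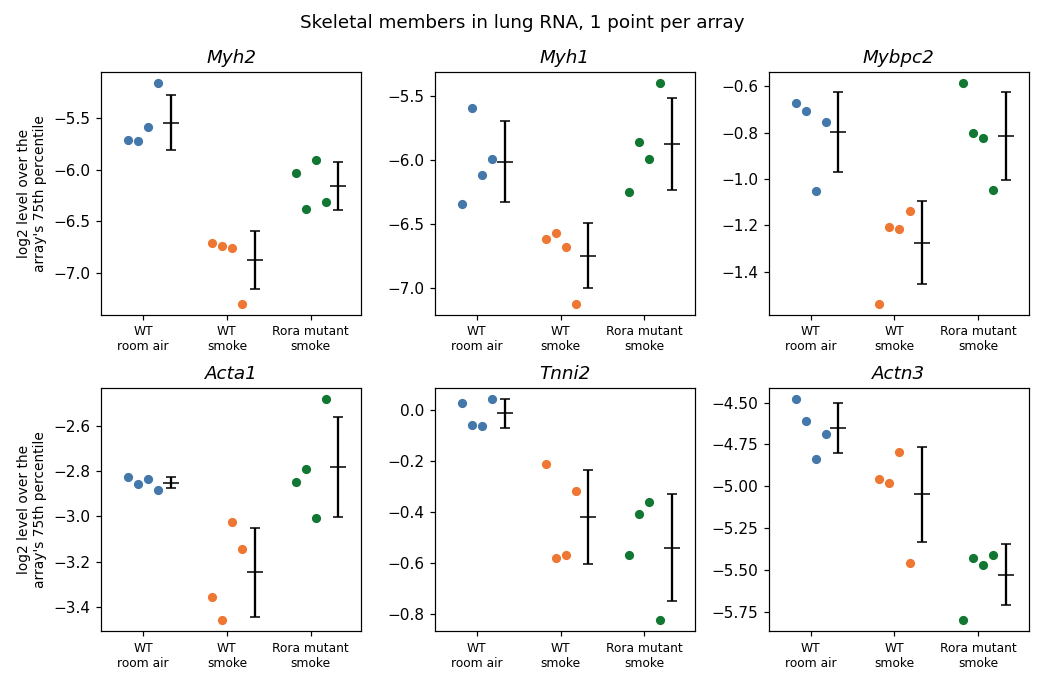
Log2 level over the array's 75th percentile of 6 skeletal members, 1 point per array, for the 3 groups; the bar beside each group is its mean with SD (n = 4), and the axes do not start at 0. Myh2, Myh1, Mybpc2 and Acta1 are lowest in WT smoke, whereas Tnni2 and Actn3 have their lowest mean in mutant smoke.

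The cardiac rises did not rest on equal footing. Over 21 other settings of the analysis, among them the omission of each array in turn, the calls of Myl3, Pln and Ankrd1 held in 20 and that of Mybpc3 in 19. The exception for each was a normexp background model on the raw spot means, under which 28 genes passed in all and no member did; Mybpc3 also lost its call without WT smoke replicate 4. The call of Myh7 held in 14 settings and ended without WT smoke replicates 1, 2 and 3 and mutant replicates 1 and 3; that of Atp2a2 held in 6 and ended with the slide as a block (0.37, adjusted p = 0.0654), without a filter on dim probes, in a fit of the 2 smoke groups alone, without any of the 8 smoke arrays and without WT air replicates 2 and 4. Values over all settings were 0.85 to 1.30 for Myl3, 0.70 to 0.92 for Mybpc3, 0.72 to 0.87 for Pln and 0.38 to 0.55 for Ankrd1. The cardiac count of 6 became 4 without any 1 of the WT smoke replicates or of mutant replicates 1 and 3, and 9 without WT air replicate 3, which enters only through the spread. Without WT smoke replicate 2 the cardiac median was 0.29, with 18 of 20 differences above 0. Within the 3 slides, each of which held all 3 groups, the cardiac median was 0.32, 0.45 and 0.33. The count of 20 positive differences was 19 with the slide as a block and without mutant replicates 1 and 3, and 20 with quantile normalization, the normexp model and the authors' value table. Under the normexp model the median over all genes also rose in this comparison. There 15 of 17 skeletal differences were positive, beside 12 with the background subtraction used elsewhere, so a count above 0 says less under that model.

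For the skeletal members the count was less firm. Of the 5 calls, 3 held with the slide as a block (Myh2, Ckm and Mybpc2), 2 in a fit of the 2 smoke groups alone, and 0 with the normexp model or without a filter on dim probes. The number that held was 1 without WT smoke replicates 1 and 3 or mutant replicates 1 and 4, 2 without WT air replicate 2, WT smoke replicate 2 or mutant replicate 2, and 3 without WT air replicate 4 or mutant replicate 3. Without WT smoke replicate 4 it was 0, and 2 other skeletal members passed there, Myl1 as higher and Actn3 as lower. The single calls held in 13 of 20 settings for Myh1, 12 of 20 for Myh2, 9 of 21 for Acta1 and Ckm, and 7 of 21 for Mybpc2. The skeletal median of 0.29 fell to 0.15 without WT smoke replicate 2, and was 0.21, 0.29 and 0.15 within the 3 slides.

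Fewer members passed in WT smoke against WT air, and all that passed were lower. Among cardiac members 2 of 20 fell (Tnnc1 and Mybpc3), none rose, also not at an unadjusted p under 0.05, and 18 of 20 differences were below 0 with a median of -0.19. Among skeletal members 2 of 17 fell (Myh2 and Mybpc2), none rose (1 at an unadjusted p under 0.05), and the median was -0.31. The common members ran from -0.35 to -0.09, and none passed, also not at an unadjusted p under 0.05. Over all genes 4.86% passed, 2.3% as higher and 2.55% as lower, and the median was -0.01. Groups did not overlap, with smoke lower, for 4 cardiac and 5 skeletal members, against 6.91% of all genes; with smoke higher this was so for 0 cardiac and 0 skeletal members, against 5.98%. The sex-linked difference between these groups is given above, and its part was not tested.

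Tnnc1, the calcium-binding troponin C of heart and slow muscle, measured 0.53, 0.37, 0.64 and 0.54 in WT air, 0.15, -0.21, 0.16 and 0.03 in WT smoke, and 0.21, 0.12, 0.15 and -0.17 in the mutants. Every array of either smoke group was below every WT air array, and the smoke groups overlapped. The difference of WT smoke from WT air was -0.49 ± 0.10 (1.40-fold, adjusted p = 0.0221). Mybpc3 (values above) differed by -0.72 ± 0.17 (1.65-fold, adjusted p = 0.0386). Myh2 differed by -1.34 ± 0.17 (2.53-fold, adjusted p = 9.1e-04), with 1 of 4 WT smoke arrays well above background. Mybpc2 differed by -0.48 ± 0.12 (1.39-fold, adjusted p = 0.0438). Without a call but with WT smoke wholly below WT air were Myl3 (-0.57 ± 0.21, adjusted p = 0.17), Actc1 (-0.42 ± 0.12, adjusted p = 0.0813), Acta1 (-0.40 ± 0.11, adjusted p = 0.0744), Myh1 (-0.74 ± 0.20, adjusted p = 0.06) and Tnni2 (-0.41 ± 0.11, adjusted p = 0.0587). Nppa differed by -0.98 ± 0.29 (1.97-fold, adjusted p = 0.0887).

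The Myh2 fall held in 19 of 20 settings, all but the normexp model. The call of Tnnc1 held in 15 of 21 and ended without WT air replicates 1, 3 and 4 and WT smoke replicates 2 and 4. The Mybpc3 call held in 10 and ended with the slide as a block, without a filter on dim probes and in a fit of the 2 groups alone. Among single arrays it ended without WT air replicates 1, 2 and 4, WT smoke replicates 2, 3 and 4 and mutant replicate 1. The Mybpc2 call held in 5. It too ended with the slide as a block, without that filter and in a fit of the 2 groups alone. Quantile normalization and the authors' value table also ended it. So did leaving out any single array but WT air replicate 3 and mutant replicates 1 and 4. The cardiac count of 2 was 0 without WT air replicates 1 or 4 or WT smoke replicates 2 or 4, and 1 without WT air replicate 2, WT smoke replicate 3 or mutant replicate 1. The skeletal count of 2 was 1 without WT air replicates 1, 2 or 4, WT smoke replicates 2, 3 or 4, or mutant replicates 2 or 3, and 5 without mutant replicate 4. Without WT smoke replicate 2 the cardiac median was -0.07. Within slides it was -0.19, -0.26 and 0.10, so that its sign turned on the third slide, and the skeletal median was -0.25, -0.44 and -0.14.

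Mutant smoke lungs against WT air lungs, a comparison that shares its arrays with the other two, gave mostly higher calls among cardiac and mostly lower calls among skeletal members. Of 20 cardiac members 3 were called higher (Pln, Ankrd1 and Myh7) and 1 lower (Tnnc1), with a median of 0.17; of 17 skeletal members 1 was called higher (Casq1) and 5 lower (Myh2, Tnni2, Ryr1, Actn3 and Neb), with a median of 0.07. Casq1 was not well above background on any WT air array and passed the filter through both smoke groups. Among the 14 skeletal members well above background on all 12 arrays, 4 were lower (Tnni2, Ryr1, Actn3 and Neb) and 1 was higher (Myl1, the fast essential light chain). No common member passed, and 1 was lower at an unadjusted p under 0.05. The share that passed was 20% of cardiac and 35.3% of skeletal members, beside 16.7% of all genes. Of all genes 6.67% passed as higher and 10% as lower, and the median over all genes was -0.01. The differences were 0.74 ± 0.13 for Pln (adjusted p = 0.0029), 0.63 ± 0.08 for Ankrd1 (adjusted p = 4.4e-04), 0.40 ± 0.08 for Myh7 (adjusted p = 0.00806) and -0.45 ± 0.10 for Tnnc1 (adjusted p = 0.0138). For Myh2 the difference was -0.61 ± 0.17 (adjusted p = 0.0273). Sets of arrays did not overlap for 3 cardiac members higher and 1 lower, and for 1 skeletal member higher and 4 lower, against 9.29% of all genes higher and 11.7% lower.

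Besides Myh2, 4 skeletal members were lower in mutants than in WT air. Actn3, the alpha-actinin of fast fibres, measured -4.48, -4.61, -4.84 and -4.69 in WT air, -4.96, -4.98, -4.80 and -5.46 in WT smoke, and -5.80, -5.43, -5.47 and -5.41 in the mutants. Mutants were below all WT air arrays and overlapped WT smoke through its replicate 4, and the difference from WT air was -0.87 ± 0.14 (1.83-fold, adjusted p = 0.00171). Tnni2, the fast troponin I, measured 0.03, -0.06, -0.06 and 0.04 in WT air, -0.21, -0.58, -0.57 and -0.32 in WT smoke, and -0.57, -0.41, -0.36 and -0.82 in the mutants. Both smoke groups were below all WT air arrays and overlapped each other; the mutant difference from air was -0.53 ± 0.11 (1.44-fold, adjusted p = 0.00759).

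Neb, the thin filament ruler nebulin, measured -4.35, -3.78, -3.94 and -3.78 in WT air, -4.23, -4.22, -4.11 and -4.37 in WT smoke, and -4.64, -4.32, -4.29 and -4.90 in the mutants. WT air replicate 1 fell among the mutant arrays, and the difference was -0.58 ± 0.15 (1.49-fold, adjusted p = 0.0239). Ryr1, the calcium release channel of skeletal muscle, measured -2.34, -2.32, -2.27 and -2.17 in WT air, -2.54, -2.21, -2.64 and -2.30 in WT smoke, and -2.62, -2.36, -2.82 and -2.72 in the mutants. Mutants lay just below WT air, by -0.36 ± 0.11 (1.28-fold, adjusted p = 0.048). Casq1, the skeletal calsequestrin, measured -8.35, -6.91, -6.66 and -8.34 in WT air, -6.57, -6.91, -6.34 and -6.42 in WT smoke, and -6.16, -5.85, -6.30 and -6.91 in the mutants. It was well above background on 0 of 4, 1 of 4 and 3 of 4 arrays, its groups overlapped, and mutants were at least 1.52-fold higher than WT air (adjusted p = 0.0412). That bound sets the mutant mean against, per WT air array, the higher of its dimmest well-above-background signal and the probe's own value.

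Of these calls, that of Ankrd1 held in all 21 settings tried, and those of Pln, Myh7, Tnnc1, Tnni2 and Actn3 in 20, all but the normexp model. Under that model the differences of Myh2, Actn3 and Neb turned to 0.19, 0.0861 and 0.0253, none of which passed. The Myh2 call held in 13 of 20 settings and ended without WT air replicates 3 and 4 and mutant replicates 2 and 4 and without a filter on dim probes; that of Neb held in 14 of 21 and ended in a fit of the 2 groups alone and without WT air replicates 2, 3 and 4 and mutant replicates 1 and 4. The Casq1 call held in 8 of 20 and ended with the slide as a block (1.13, adjusted p = 0.0733), without a filter on dim probes, in a fit of the 2 groups alone, and without WT air replicates 1 and 4, WT smoke replicates 1, 3 and 4 and mutant replicates 1, 2 and 3. For Ryr1 the call held in 7 of 21. Its difference was -0.0176 with the normexp model and -0.16 with the mean of its probes, and the call also ended with quantile normalization, with the authors' value table and without a filter on dim probes. Among single arrays it ended without any WT air replicate, WT smoke replicates 1 and 4 and mutant replicates 1, 3 and 4. The skeletal count of 6 was 2 without WT air replicate 4, 3 without WT air replicate 3 or mutant replicates 1 or 4, and 4 without WT air replicates 1 or 2, WT smoke replicate 1 or mutant replicate 3. The cardiac median of 0.17 was 0.25 without WT air replicate 1 and 0.10 without WT air replicate 3. The skeletal median of 0.07 was 0.03 without WT air replicate 1, 0.02 without WT air replicate 3 or mutant replicate 3, and -0.0205 without mutant replicate 4.

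**Figure D3:**
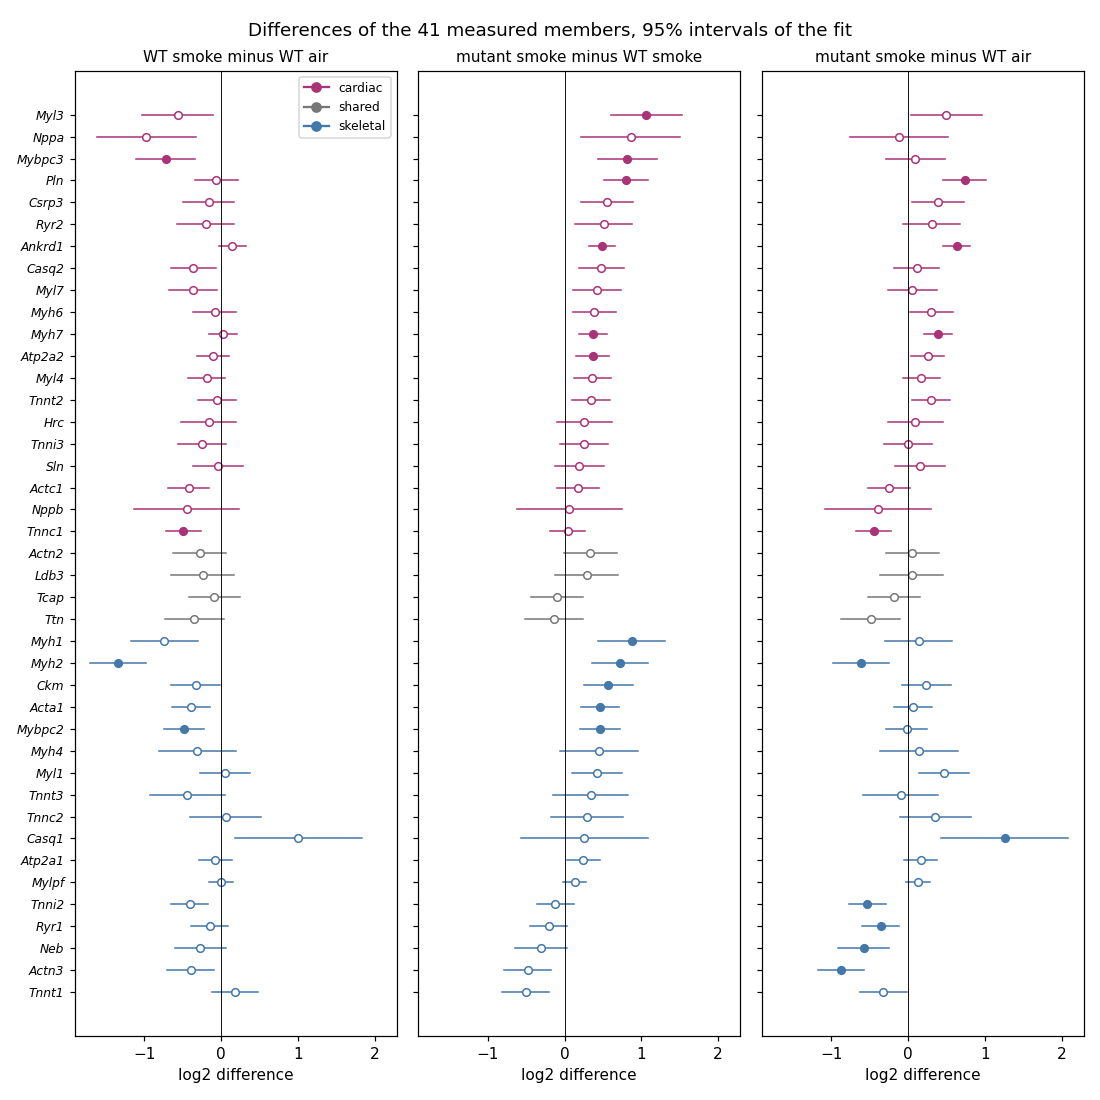
Log2 difference of each of the 41 measured members in the 3 comparisons, with its 95% interval from the fit; filled points passed an adjusted p under 0.05, and colours give the cardiac, common (shared) and skeletal members, ordered within each by the middle panel. In the middle panel all 20 cardiac points lie right of 0, from 0.04 to 1.07, while the skeletal points run from -0.50 to 0.88.

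The members also differed by array within a group. WT smoke replicate 2 was the lowest of the 12 arrays for 17 of 20 cardiac and 6 of 17 skeletal members, while it was lowest for 9.67% of all genes. The cardiac count was 17 with quantile normalization and with the authors' value table and 13 with the normexp model, settings added after the data were seen. The highest array was in the mutant group for 13 of 20 cardiac members, 8 of them on mutant replicate 3, which was highest for 12.2% of all genes. By group means, mutants were highest for 16 and WT smoke lowest for 18 of the 20 cardiac members. As the median over the 20 genes of the deviation from each gene's 12-array mean, the WT smoke arrays stood at -0.07, -0.53, -0.08 and -0.13, the mutant arrays at 0.27, 0.15, 0.34 and 0.09, and WT air at 0.19, -0.10, -0.20 and 0.14. The 3 WT smoke arrays other than replicate 2 thus lay within the WT air range and below all mutant arrays. Skeletal medians were 0.10, 0.13, 0.09 and 0.18 in WT air, -0.09, -0.26, -0.07 and -0.12 in WT smoke, and 0.11, 0.08, 0.06 and 0.00 in the mutants, so that WT smoke was below both other groups.

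**Figure D4:**
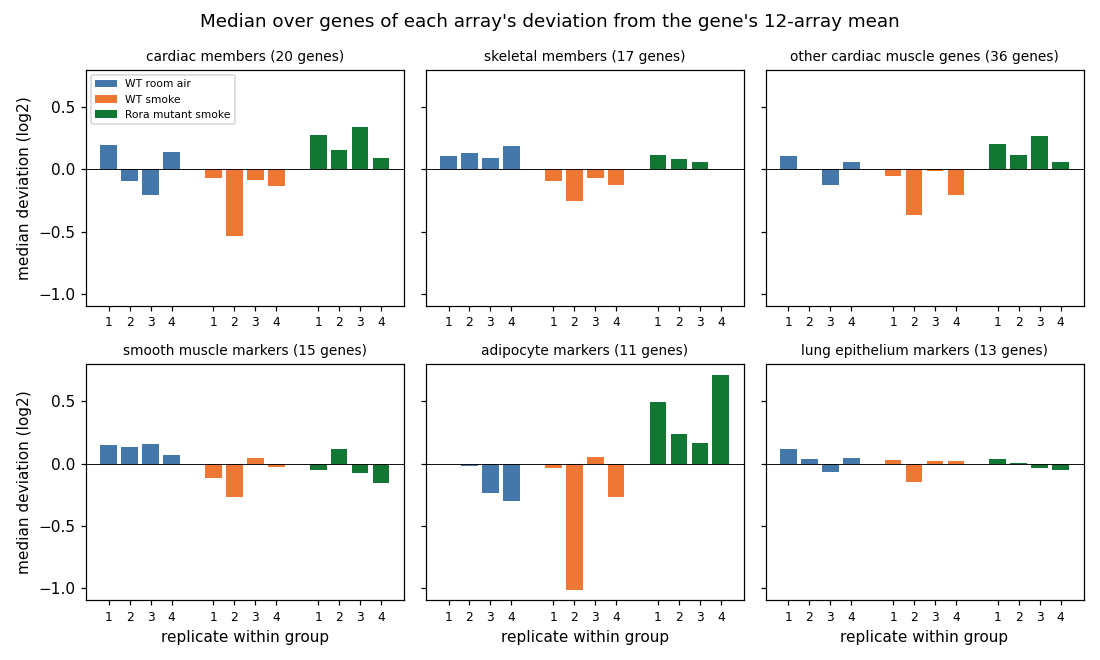
Median over genes of each array's deviation (log2) from the gene's mean over 12 arrays, as bars by replicate number within the 3 groups, for cardiac and skeletal members and 4 other gene lists. WT smoke replicate 2 is lowest for cardiac members (-0.53) and for adipocyte markers (-1.01), and lung epithelium markers stay between -0.15 and 0.12.

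Several members were read by more than 1 measured probe, and most of these probes had 1 sign. In the comparison of mutant with WT smoke, 7 of 9 such cardiac members and 5 of 6 skeletal members had the same sign on every probe. The second Myl3 probe gave 0.63, both Nppa probes 0.86 and 0.89, and both Myh7 probes 0.36 and 0.38. For called members the second Myh2 probe gave 0.31 beside 0.72 on the probe used, and the probes of Atp2a2 ran from 0.08 to 0.37. That second Myh2 probe was well above background on 4 of 4 WT air arrays but on only 1 of 4 arrays in each smoke group. Its 0.31 thus compares dim groups and adds little to the call. Tnnt2 was split, with 0.35 on the probe used and -0.12 on the other. Titin, the elastic spring that spans the sarcomere and is spliced into many forms, had 9 measured probes. In that comparison 5 of its probes were above 0 and 4 below, from -0.20 to 0.56, while all 9 were lower in WT smoke than in WT air, from -0.46 to -0.10. Ldb3 and Ryr1 had probes of both signs as well. Atp2a1, the SERCA pump of fast muscle, differed by -0.08 between WT smoke and WT air on the probe used but by 0.91 on its second probe, whose group means were -6.05 in WT air, -5.14 in WT smoke and -4.46 in the mutants. With the mean of both probes the Atp2a1 difference turned to 0.42 (adjusted p = 0.0471).

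**Figure D5:**
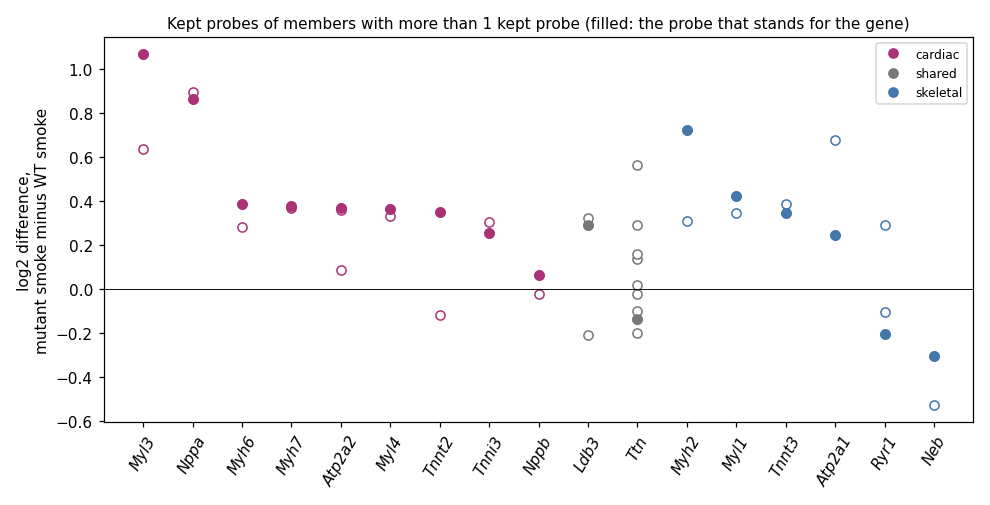
Log2 difference between mutant and WT smoke lungs for every measured probe of the 17 members with more than 1 such probe; the filled point is the probe that stands for the gene. Probes of Myh7, Nppa and Myl4 lie close together, whereas the 9 titin probes spread from -0.20 to 0.56.

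Other genes of heart muscle were read from a list of 41 that holds no member. Like the members, it was chosen with earlier results of these data known. In mutant against WT smoke 9 of 36 measured rose and none fell (2 were lower at an unadjusted p under 0.05), with a median of 0.32. The list's smallest p-values belonged to Tbx20, a cardiac transcription factor (1.05 ± 0.13), Gja5, the gap junction protein connexin 40 (0.63 ± 0.09), and Myom2, an M-band protein (0.61 ± 0.11). Tbx20 was dim, with mean levels of -6.22 in WT smoke and -5.16 in the mutants. In WT smoke against WT air 4 fell and none rose, also not at an unadjusted p under 0.05 (median -0.14), and in mutant smoke against WT air 6 rose and 2 fell (median 0.16). Over all genes 2.49% passed as higher and 3.56% as lower in mutant against WT smoke. These shares were 2.3% and 2.55% in WT smoke against WT air, and 6.67% and 10% in mutant smoke against WT air. Of 29 measured other skeletal muscle genes, 3 rose and none fell in mutant against WT smoke (1 was lower at an unadjusted p under 0.05; median 0.18), with Tmod4, a thin filament capping protein, at 0.41 ± 0.08. In WT smoke against air 2 of the 29 fell and none rose (1 higher at an unadjusted p under 0.05), with Ampd1, the AMP deaminase of muscle, at -1.07 ± 0.10, and in mutant smoke against air 2 rose and 1 fell. Of the myogenic factors, Myog was well above background on 2 arrays and Myf5 and Myf6 on 0.

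Markers of other tissues moved beside the muscle genes. In mutant against WT smoke 4 of 11 measured adipocyte markers rose and none fell, also not at an unadjusted p under 0.05, with a median of 0.80; Fabp4, a fatty acid carrier, differed by 1.02 ± 0.23, Cidec, a lipid droplet protein, by 0.50 ± 0.12 and Lipe, a lipase, by 0.50 ± 0.08. The mean level of the 11 ran from -1.59 to -1.15 in WT air, -2.17 to -1.22 in WT smoke and -1.20 to -0.54 in mutant smoke, the lowest being WT smoke replicate 2, and their defining marker Adipoq was measured and differed by 1.00 ± 0.37 (adjusted p = 0.146). Of 15 smooth muscle markers 1 fell and none rose (2 higher at an unadjusted p under 0.05; median 0.08), with mean levels of 2.30 to 2.38, 1.99 to 2.27 and 2.09 to 2.31 in the same order. Of 13 lung epithelium markers none passed, 3 being higher and 2 lower at an unadjusted p under 0.05. The 4 measured thymocyte markers had mean levels of -2.42 to 0.87 in WT air, the highest being replicate 4, -2.63 to -2.34 in WT smoke and -2.80 to -1.67 in mutant smoke; Ptcra and Rag2 were well above background on 0 arrays. Of 8 mesothelial markers none passed (2 higher and 0 lower at an unadjusted p under 0.05). Of 5 measured markers of oesophageal squamous epithelium 1 rose, Sprr1a (1.01 ± 0.15), and Krt4, Krt6a and Sprr3 were well above background on 0 arrays. Cartilage markers of the airways had 4 measured genes. None passed in this comparison (2 higher and 0 lower at an unadjusted p under 0.05). Of these genes 2 passed as lower in WT smoke against WT air. In WT smoke against WT air no adipocyte marker passed (1 higher and 1 lower at an unadjusted p under 0.05) and no smooth muscle marker passed, although all 15 of the latter were below 0 (median -0.17; 6 lower at an unadjusted p under 0.05). In mutant smoke against WT air 3 adipocyte markers rose (median 0.57) and 2 smooth muscle markers fell (median -0.14). The part of these tissues in the differences of the sarcomere genes was not tested.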

How the data were processed

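Whole lung RNA (100 ng, labelled with Cy3 per the labels' protocols) was measured on 12 arrays, 4 in each of 3 groups set by the labels. Slides were scanned with Agilent Feature Extraction 9.5.3.1, per the submitters' processing notes. Per the file headers, the authors deposited the processed signal of each spot as a linear intensity after background subtraction, with the raw spot mean and local background as further intensity columns; the authors also deposited a value table in log2, whose array medians were all 6.79 and which correlated with the processed signal at 0.9995 or more. The flags for spots well above background are other values of 0 or 1 in the authors' files. The build of the probe positions is mm8, per the file headers.

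From 43379 non-control spots, 41174 probes were formed by averaging, with outlier spots left out, and 30197 probes were kept as well above background on at least 4 arrays. The kept probe with the highest mean stood for each of 19829 genes. Levels were log2 of the processed signal minus the array's 75th percentile. One limma 3.58.1 model in R 4.3.3, with a mean per group, gave the 3 comparisons; all tests were two-sided, with Benjamini-Hochberg adjustment over all genes and a threshold of 0.05. The R package data.table (1.17.8) read the files, and figures were made in Python 3.11.15 with the library matplotlib (3.10.9). Data were simulated for 19829 genes with each gene's spread within the 3 groups, and 200 genes were changed in the WT smoke arrays. In the test against WT air 63.7% of changes of 0.5 log2 units and 92.5% of changes of 1 were recovered, and 4.73% of calls were false. Values were drawn independently for each gene and array. Deviations that many genes share on 1 array were thus left out, and the false share need not hold for the real arrays.

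The labels call the arrays biological replicates; p-values measure the spread between these arrays, whose number limits the precision. The 3 slides each held all 3 groups, and a pair of arrays of 1 group lay together on each: WT air replicates 1 and 4 (slide 1), those of WT smoke numbered 2 and 4 (slide 2), and mutant replicates 3 and 4 (slide 3). Alternatives were another background model (normexp, offset 50), quantile normalization, the authors' table, no or a stricter filter, the mean of probes, slide or replicate number as a block, pairs of groups alone and each array left out. The members and lists were chosen with earlier results of these data known. Array values are given for members that passed in any comparison and for the 6 cardiac and 6 skeletal members with the widest range over arrays; of other lists, at most 3 passing genes with the smallest p are named (1 is not reported here), beside markers named for whether they were detected.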

Additional observations from a re-analysis of the deposited data

Results flagged for a closer look

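In groups of 4 arrays, 1 array stood apart from the other 3 (its gap to the nearest, over the group's range, was above the critical value of Dixon's test) in 10 of 123 gene-and-group combinations of measured members; chance gives about 5%. WT smoke replicate 2 was the low array in 5 of them: Myl4 at 2.90 beside 3.33 to 3.39 on the other arrays of its group, Tnnt2 at 3.46 beside 3.84 to 3.86, Sln at 2.87 beside 3.40 to 3.45, Atp2a2 at 1.50 beside 1.82 to 1.85 and Atp2a1 at -1.75 beside -1.40 to -1.35. On that array the adipocyte markers also had their lowest median deviation, -1.01, and their part was not tested. Further low arrays were Myh2 in WT smoke replicate 4 (-7.30 beside -6.76 to -6.71), Tnni3 in mutant replicate 4 (2.84 beside 3.18 to 3.23), Casq2 in WT air replicate 3 (-1.44 beside -1.01 to -0.96) and Actn3 in mutant replicate 1 (-5.80 beside -5.47 to -5.41). Atp2a1 was high in WT air replicate 4 (-1.18 beside -1.49 to -1.44).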

How the results depend on the processing

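The normexp background model changed the most. Under it the genes called were 53 in smoke against air (40 higher and 13 lower, beside 457 and 506), 28 in mutant against WT smoke and 181 in mutant smoke against air. Members called were then 0 cardiac and 0 skeletal in each of the first 2 comparisons, and 1 cardiac (Ankrd1) and 0 skeletal in the third. The all-gene median in mutant against WT smoke was 0.10, the skeletal medians 0.45 there and 0.18 in mutant smoke against air, and Myh2, Actn3 and Neb turned to 0.19, 0.0861 and 0.0253 against air. With the mean of probes Atp2a1 turned to 0.42 in smoke against air, and the skeletal median in mutant against WT smoke was 0.36. With quantile normalization and with the authors' table the skeletal count in smoke against air was 1, and the skeletal median in mutant smoke against air 0.14 in both. Without a filter on dim probes the genes called were 564 in smoke against air and 688 in mutant against WT smoke, cardiac and skeletal counts in smoke against air 1 and 1 (skeletal median -0.21), and skeletal counts 0 in mutant against WT smoke and 3 in mutant smoke against air; the cause was not tested. With the slide as a block the counts in smoke against air were 1 cardiac and 1 skeletal, and the skeletal count in mutant against WT smoke was 3. Fitting only the 2 groups compared gave 1 cardiac call in smoke against air, and 747 genes and 2 skeletal members in mutant against WT smoke.

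The replicate numbers did not pair the arrays: deviations of arrays of the same number correlated at -0.10 to 0.22. With the replicate block the skeletal count was 1 in smoke against air and 2 in mutant against WT smoke; cardiac counts were 2, 5 and 4. Calls that ended with it were those of Mybpc2 in smoke against air, Myh7, Atp2a2, Acta1, Myh2 and Mybpc2 in mutant against WT smoke, and Myh2 in mutant smoke against air.

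Leaving out single arrays gave 554 to 961, 578 to 1143 and 2223 to 3227 genes called in smoke against air, mutant against WT smoke and mutant smoke against air. Cardiac counts were 0 to 3, 4 to 9 and 4 to 6, and skeletal counts 1 to 5, 1 to 5 and 2 to 7. Cardiac medians were -0.28 to -0.07, 0.29 to 0.43 and 0.10 to 0.25, and skeletal medians -0.39 to -0.22, 0.15 to 0.37 and -0.0205 to 0.0916. Over all alternatives, 361 of 520 values of called members kept direction and call, 156 no longer passed and 3 turned.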
